A study of Mus musculus with 3 samples.

Results

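The genes described here encode the proteins of the cytosolic ribosome. They were taken as all protein-coding mouse genes whose symbol is Rpl or Rps with a number (with or without a letter or the ending l of a paralogue), Rplp with a number, or Rpsa, without the S6 kinases of similar name. The rule found 84 genes among the 52661 identifiers of the files, of which 52 belong to the large subunit and 32 to the small subunit. They lie on 19 chromosomes, with 14 on chromosome 7 and 4 on X. Each library had counts for 82 of the 84, though not for the same 82 in all libraries, and 81 reached 10 CPM (read counts scaled to library size) in a library. The exceptions were Rpl3l, Rpl10l and Rpl39l, paralogues that are described below.

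RNA was sequenced in bulk from 3 mouse mammary populations sorted as positive for PROCR, the protein C receptor, a surface protein found on a mammary stem cell population and on endothelium. All were labelled EpCAM+ and CD49f high, a gate for epithelial cells in which CD49f is the integrin alpha 6 chain, and they were split on CD36, a fatty acid receptor, and on PDPN, podoplanin. The CD36+ library (CD36+ and PDPN-) was titled Cdh5+ and Cd36+, the PDPN+ library (CD36- and PDPN+) was titled Cdh5-, and the double-negative library (CD36- and PDPN-) was titled Cdh5+ and Cd36-. The labels used here state no strain, age, number of mice or number of cells. Where 3 values follow each other, they are for CD36+, PDPN+ and double-negative in that order unless said otherwise. Each population had 1 library, so values have no replicate error, no p-value is given, and each difference compares libraries and not the populations. Intervals cover counting error only, and in bulk RNA fewer cells of a type and less RNA per cell cannot be told apart.

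Total estimated counts ranged from 51138993 to 67675778. The labels were checked against markers before the genes were compared. The summed level of 8 endothelial markers was 5318, 119 and 3652 CPM in the order CD36+, PDPN+, double-negative. The sum of 6 basal epithelial markers was 37.9, 4977 and 217 CPM in the same order. Sums were 89.3, 1415 and 99.7 CPM for 5 myoepithelial markers and 363, 645 and 277 CPM for 6 luminal markers. They were 110, 561 and 60.6 CPM for 5 fibroblast markers and 246, 64.8 and 189 CPM for 4 pericyte markers. The CD36+ and the double-negative library thus held high endothelial and low basal signal beside their epithelial label, and every comparison with the PDPN+ library set these marker profiles against each other. RNAs that lack a poly(A) tail, 8 of which were found, summed to 60.8, 3.22 and 33.3 CPM, and this sum moved with the same split. Most of it was Rn7sk, at 43.4, 2.02 and 23.5 CPM. Rpph1 and Rn7s1 followed the split at lower levels, while Rnu12, at 1.28, 1.20 and 0.0198 CPM, did not. Each library had been made with either a low-input kit or a kit that removes ribosomal RNA, and the labels do not say which kit any given library had. The part of cell makeup and kit in the ratios below was not tested.

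The cytosolic ribosome has a small subunit, which reads the mRNA, and a large subunit, which joins amino acids. Each subunit is built from ribosomal RNA and a set of proteins made in nearly equal numbers, and most of these proteins come from a single working gene with many processed copies, most of them pseudogenes, elsewhere in the genome. Their mRNAs typically begin with a C and a run of pyrimidines, the 5′ terminal oligopyrimidine (TOP) motif, through which mTOR and LARP1 control their translation. A few proteins have an expressed paralogue, such as RPS27L, whose gene is a known p53 target.

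Start-site sequences show the feature that many of these mRNAs share. In the RefSeq promoter table of the GRCm38.p6 build, 64 of the 84 genes had an entry. A C followed by at least 4 C or T bases, starting within 5 bases of an annotated start on the gene's own strand, was found in 29 of the 64 genes (45.3%). The same run was found in 3571 of 16458 other protein-coding genes (21.7%), in 17 of 69 genes for mitochondrial ribosomal proteins (24.6%) and in 3 of 8 other TOP genes of translation (37.5%). Each window printed here holds 10 bases before the start and 20 from it. Capitals mark the pyrimidine run from its first C within 5 bases of the start, so a run can begin further upstream, as for Rpl35. These examples were chosen from the longest runs marked in this way.
Rpl27a, chr7:109519185-109519214, plus strand: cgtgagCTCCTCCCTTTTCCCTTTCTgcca
Rpl15, chr14:18270967-18270996, minus strand: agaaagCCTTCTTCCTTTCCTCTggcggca
Rpl35, chr2:39005112-39005141, minus strand: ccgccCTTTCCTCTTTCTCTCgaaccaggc
Rps10, chr17:27635225-27635254, minus strand: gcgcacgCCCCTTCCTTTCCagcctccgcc

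Across the 3 libraries the ribosomal protein genes formed a tight group. They took 2.548% of all counts in the CD36+ library (exact 95% interval 2.544 to 2.551%), 2.691% in the PDPN+ library (2.687 to 2.695%) and 2.648% in the double-negative library (2.643 to 2.652%). By TPM, in which counts are divided by transcript length before scaling, they took 6.57%, 7.11% and 6.49%. The PDPN+ library was highest on both scales, and the other libraries changed order between the scales. The large subunit took 1.54%, 1.61% and 1.62% of counts and the small subunit 1.01%, 1.08% and 1.03%.

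Levels per length spanned a wide range among the genes and a narrow range among the libraries. Rps27, which encodes a zinc-finger protein of the small subunit, had the highest level, at 6126, 5519 and 6407 TPM in the order CD36+, PDPN+, double-negative. Rpl35, a large-subunit gene whose start is printed above, had 2401, 2015 and 2452 TPM. Both genes were lowest in the PDPN+ library. Rps19, a small-subunit gene known from Diamond-Blackfan anaemia, had 1911, 2431 and 1806 TPM, and Rpl32 had 2158, 2210 and 1737 TPM. The levels of Rps19 and Rpl32 were highest in the PDPN+ library. The median gene stood at 558, 645 and 521 TPM in the order CD36+, PDPN+, double-negative.

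Of the 81 genes that reached 10 CPM, 61 had their highest TPM in PDPN+, 11 in double-negative and 9 in CD36+. The highest library exceeded the lowest by a median of 1.25-fold, and by no more than 1.5-fold for 65 genes and 2-fold for 78. The genes past 2-fold on this scale were Rpl5 (2.56-fold), Rpl12 (2.45-fold) and Rpl21 (2.31-fold). As a description across 81 genes, which share their libraries, Pearson's correlation of log2 levels in CPM was 0.965 between the CD36+ and PDPN+ libraries, 0.964 between CD36+ and double-negative, and 0.973 between PDPN+ and double-negative.

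**Figure D1:**
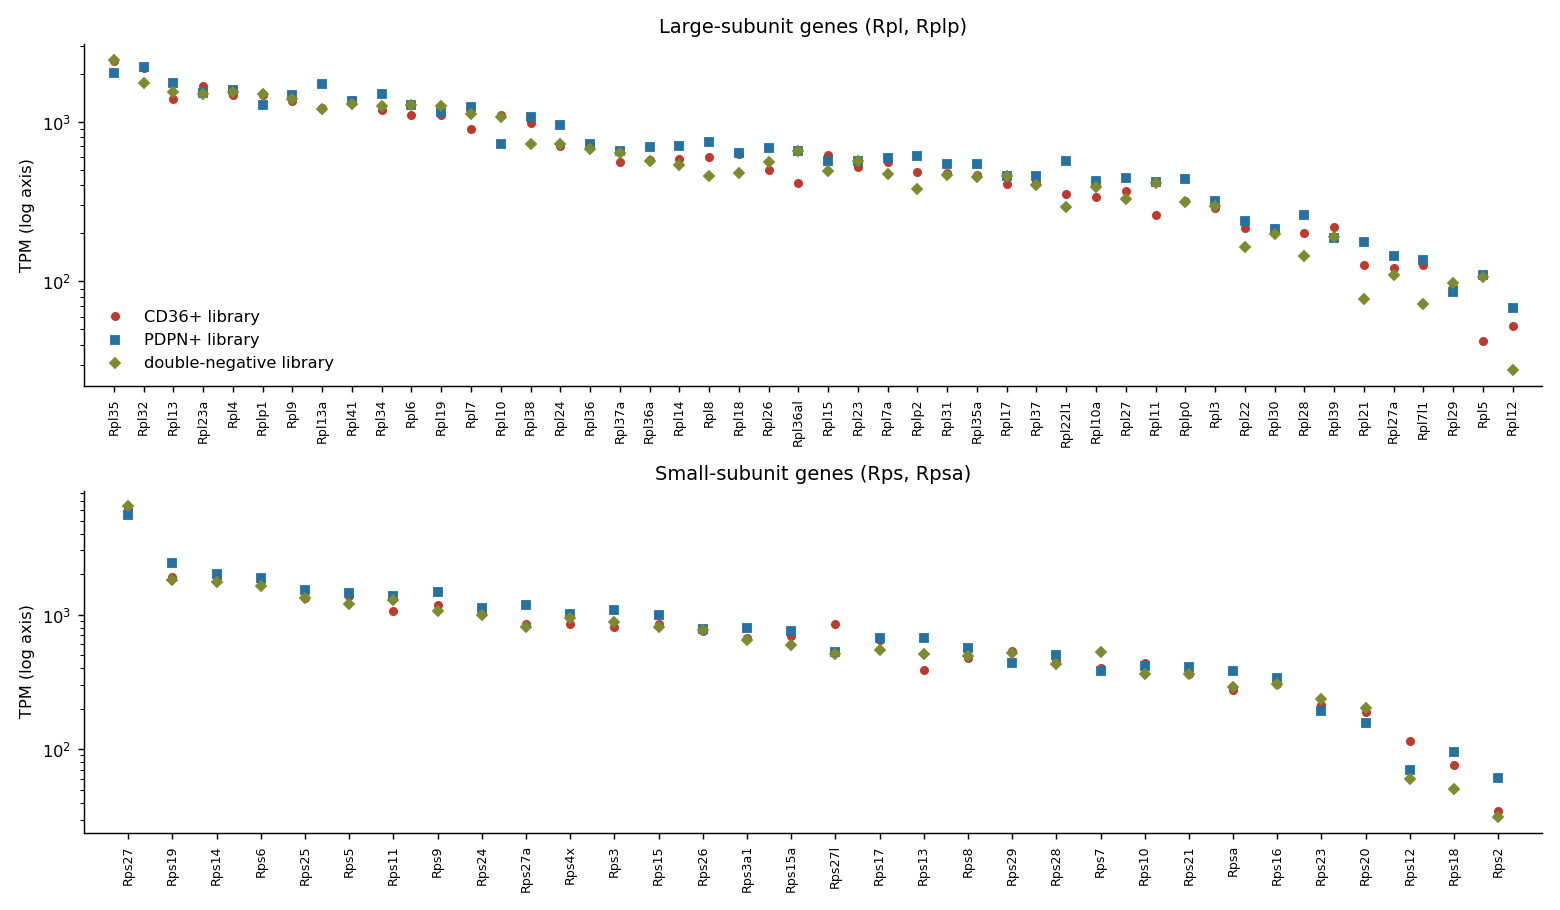
TPM (log axis) of the ribosomal protein genes reported here with a level above 0 in all 3 libraries, ordered by mean level, large subunit above and small subunit below. Circles are the CD36+, squares the PDPN+ and diamonds the double-negative library, 1 library each, and the symbols lie close together for most genes, with Rpl5, Rpl12, Rpl21 and Rps12 among the exceptions.

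Ratios between libraries were then taken from CPM scaled by TMM, a method that centres the bulk of genes, with a prior count of 2. Genes with at least 10 CPM in either library of a pair were compared, and a gene was called apart at 2-fold or more. The 3 pairs share libraries, so their values are given side by side and are not independent.

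Between the CD36+ and PDPN+ libraries, 3 of 81 genes (Rps12, Rps27l and Rpl10) were at least 2-fold higher in CD36+, against 25.3% of the 9387 genes compared. Rpl5 was the 1 gene at least 2-fold lower, against 28% of all genes. Of the 3697 nuclear protein-coding genes in the same range of levels, 864 were higher and 601 lower. The median log2 ratio of the group was 0.27, beside -0.02 over all genes compared. The middle 50% of the ribosomal protein genes spanned 0.30 log2 units, beside 2.26 for all genes and 1.52 for the genes in that range.

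Between the CD36+ and double-negative libraries, Rps12 was the 1 gene of 81 at least 2-fold higher in CD36+, against 22.9% of 8968 genes, and Rpl5 the 1 gene at least 2-fold lower, against 21%. In the same range of levels, 497 of 3672 nuclear protein-coding genes were higher and 374 lower. The median log2 ratio was 0.15, beside 0.11 over all genes. The middle 50% spanned 0.32 log2 units, beside 1.66 for all genes and 1.01 for nuclear protein-coding genes of the same level range.

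Between the double-negative and PDPN+ libraries, none of the 81 genes was 2-fold apart, while 25.4% of 9515 genes were at least 2-fold higher in double-negative and 30.2% at least 2-fold lower. In the same range of levels, 796 of 3698 nuclear protein-coding genes were higher and 695 lower. The median log2 ratio was 0.15, beside -0.11 over all genes. The middle 50% spanned 0.39 log2 units, beside 2.40 for all genes and 1.55 for nuclear protein-coding genes of the same level range. Around the group's own median, 75, 73 and 73 of the 81 genes stayed within 1.5-fold in the 3 pairs in the order given. Around their own medians, 30.9%, 39% and 28.3% of all genes did so. Of nuclear protein-coding genes in the same range of levels, 40.3%, 56% and 39.8% did.

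The sign of the group's median depended on the scaling. Under total counts it was -0.13 for CD36+ against PDPN+, -0.02 for CD36+ against double-negative and -0.08 for double-negative against PDPN+, and all genes compared shifted with it, to medians of -0.49, -0.09 and -0.38. By TPM the group's medians were -0.16, 0.05 and -0.20. The difference between the group and all genes kept its sign under each scaling tried, at 0.29, 0.05 and 0.26 log2 units under TMM and 0.36, 0.07 and 0.31 under total counts. A direction for the whole group was therefore not set by these data. None of the 81 genes compared was 2-fold higher in CD36+ than in PDPN+ under total counts or by TPM. By TPM the folds of the 3 genes called higher were 1.64 for Rps12, 1.60 for Rps27l and 1.53 for Rpl10. Single genes are described below by their distance from the group's median in CPM, which a change of the scaling factor per library does not move. TPM, in which counts are also divided by transcript length, can move it. For CD36+ against double-negative the fold of Rps12 was 3.22 from CPM scaled by TMM and 1.90 by TPM. The group's median log2 ratio for that pair was 0.15 under TMM and 0.05 by TPM.

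**Figure D2:**
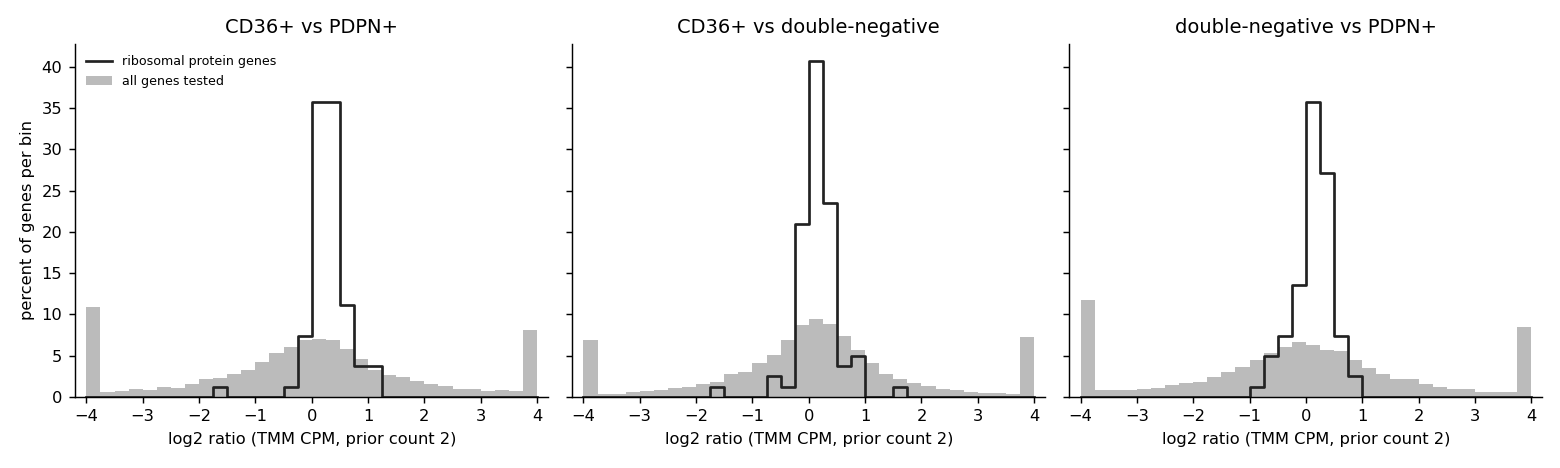
Percent of genes in bins of 0.25 log2 units of the ratio between libraries (CPM scaled by TMM), for all genes compared (grey bars) and for the 81 ribosomal protein genes (black line), with the end bins holding everything beyond 4 units. The black line is narrow and single-peaked in each pair, with middle spans of 0.30, 0.32 and 0.39 log2 units.

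Both subunits had similar medians. For CD36+ against PDPN+ the median log2 ratio was 0.24 over 49 large-subunit genes and 0.28 over 32 small-subunit genes. For CD36+ against double-negative the medians were 0.13 and 0.16, and for double-negative against PDPN+ both were 0.15. Many ribosomal protein genes carry small nucleolar RNAs in their introns, and 30 of the 84 did so on their own strand. The medians of these hosts were 0.26, 0.16 and 0.14 in the 3 pairs, beside 0.27, 0.14 and 0.15 for the 51 other genes compared.

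The stalk of the large subunit, which recruits the factors of translation, is built from the products of Rplp0, Rplp1 and Rplp2. Rplp0 had 338, 326 and 304 CPM in the order CD36+, PDPN+, double-negative. Rplp1 had 415, 259 and 399 CPM, so that it was low in the PDPN+ library. Rplp2 had 136.2, 136.3 and 105 CPM, and was low in the double-negative library. For double-negative against PDPN+, Rplp1 lay 0.47 log2 units above the group's median and Rplp2 0.53 below it. These were among the larger distances of the group in that pair. Rpsa, which encodes a small-subunit protein also known as the laminin receptor, had 263, 259 and 237 CPM.

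Other genes away from the group had most of their counts in the gene itself, and the shares of their copies are given below. Rpl10, an X-linked gene whose protein joins the large subunit late in its assembly, had 604, 285 and 534 CPM in the order CD36+, PDPN+, double-negative. Its level in PDPN+ was well below both others. It was 2.12-fold higher in CD36+ than in PDPN+ (2.09 to 2.16), and 1.88-fold higher in double-negative than in PDPN+ (1.84 to 1.91). Rps20, a small-subunit gene, had 139, 74.7 and 144 CPM, the same shape. It lay 0.63 log2 units above the group's median for CD36+ against PDPN+ and 0.79 above it for double-negative against PDPN+. Rps29, another small-subunit gene, had 99.4, 58.3 and 91.1 CPM, also lowest in PDPN+. Rps13, of the small subunit, had 145, 181 and 183 CPM and lay 0.59 and 0.48 log2 units below the median for CD36+ against PDPN+ and against double-negative.

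The paralogues came next. Rps27l and its parent Rps27 encode proteins of the same length, with coding sequences of 255 bases that were identical at 194 positions (76.1%). Their sequences, from GENCODE M21, are shown because Rps27l lay farthest from the group's median among the paralogues compared for CD36+ against PDPN+. Capitals mark the positions at which they differ.
Rps27: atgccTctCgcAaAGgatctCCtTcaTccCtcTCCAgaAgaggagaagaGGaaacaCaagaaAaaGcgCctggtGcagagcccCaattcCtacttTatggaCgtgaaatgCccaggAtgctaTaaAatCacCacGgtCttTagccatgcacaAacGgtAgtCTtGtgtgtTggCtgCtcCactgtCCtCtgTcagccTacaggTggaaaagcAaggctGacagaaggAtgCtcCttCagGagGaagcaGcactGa
Rps27l: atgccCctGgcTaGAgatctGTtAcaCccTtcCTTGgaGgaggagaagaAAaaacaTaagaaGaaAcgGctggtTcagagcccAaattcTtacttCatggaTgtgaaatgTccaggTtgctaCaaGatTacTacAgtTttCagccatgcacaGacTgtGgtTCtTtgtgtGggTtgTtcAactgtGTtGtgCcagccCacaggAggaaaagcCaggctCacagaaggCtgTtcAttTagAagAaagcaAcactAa

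Rps27l had 238, 106 and 136 CPM in the order CD36+, PDPN+, double-negative. The CD36+ library was above both others. It was 2.26-fold higher in CD36+ than in PDPN+ (2.20 to 2.33) and 1.76-fold higher than in double-negative (1.71 to 1.81). Per length, Rps27l stood at 13.8% of the TPM of Rps27 in CD36+, 9.56% in PDPN+ and 7.98% in double-negative. A ratio within a library does not depend on scaling. By counts this ratio was 1.49-fold higher in CD36+ than in PDPN+ (95% interval 1.44 to 1.53) and 1.74-fold higher than in double-negative (1.69 to 1.80). Mdm2, another p53 target, had 61.7, 119 and 103 CPM, and so was lowest in the CD36+ library. Any part of p53 in these levels was not tested.

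Rpl7l1 encodes a relative of RPL7, and the coding sequences of the pair were 59.1% identical over their alignment. It had 276, 212 and 145 CPM, while Rpl7 had 739, 726 and 836 CPM. Rpl7l1 stood at 14.1%, 10.9% and 6.45% of the TPM of Rpl7. By counts the ratio was 2.16-fold higher in CD36+ than in double-negative (2.10 to 2.23) and 1.28-fold higher than in PDPN+ (1.25 to 1.31).

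Rpl36al is a retrocopy of the X-linked Rpl36a, and both coding sequences have 321 bases with 87.9% identity. It had 129, 145 and 198 CPM, and was highest in the double-negative library. Rpl36a had 158, 144 and 144 CPM. Per length, the paralogue stood at 71.4%, 93.8% and 115% of its parent. The order of the libraries was opposite to that of Rps27l and Rpl7l1. By counts the ratio in CD36+ was 0.593 of that in double-negative (0.569 to 0.619), and the ratio in double-negative was 1.36-fold that in PDPN+ (1.31 to 1.42).

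Rpl22l1 is the paralogue of Rpl22, whose protein is known to repress it. It had 116, 133 and 88.5 CPM, while Rpl22 had 76.1, 63.1 and 57.4 CPM. Rpl22l1 was the only paralogue measured above its parent in TPM in all 3 libraries, at 164%, 238% and 179%. By counts the ratio in CD36+ was 0.722 of that in PDPN+ (0.686 to 0.760). Against double-negative it was 0.989 (0.931 to 1.05), an interval that includes 1.

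Rpl39l, known from male germ cells, was low and had counts in 1 library. It had 178 counts (3.01 CPM) in the CD36+ library and 0 in both others, where a count of 0 allows up to 0.0406 CPM in PDPN+ and 0.0594 CPM in double-negative. Against this floor of 3 counts it was at least 74.1-fold higher in CD36+ than in PDPN+ and at least 50.6-fold higher than in double-negative. These folds leave out the counting error of the 178 counts, and exact 95% intervals that include it had lower bounds of 59.7-fold and 40.7-fold. Its parent Rpl39 had 83.5, 51.9 and 68.1 CPM, so that the paralogue stood at 3.08% of its TPM in CD36+. The coding sequences have 156 bases each and differ at 23 positions, in capitals here.
Rpl39: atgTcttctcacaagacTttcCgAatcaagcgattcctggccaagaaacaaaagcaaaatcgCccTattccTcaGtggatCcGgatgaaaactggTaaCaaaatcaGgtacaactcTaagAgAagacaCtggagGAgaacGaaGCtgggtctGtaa
Rpl39l: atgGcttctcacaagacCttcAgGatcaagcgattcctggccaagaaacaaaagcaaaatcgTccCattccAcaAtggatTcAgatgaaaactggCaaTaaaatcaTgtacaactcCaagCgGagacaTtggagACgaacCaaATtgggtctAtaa

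Rpl3l, known from heart and skeletal muscle, had 0 counts in every library, which allows up to 0.0507, 0.0406 and 0.0594 CPM, while Rpl3 had 312, 247 and 313 CPM. Rpl10l, known from testis, had 0 counts in CD36+, 2 in PDPN+ and 1 in double-negative. Rps4l, a relative of Rps4x annotated as a transcribed pseudogene and so not among the 84 genes, had 690, 80 and 158 counts. In CPM this was 11.7, 1.08 and 3.13 for Rps4l, beside 598, 506 and 608 for Rps4x. By counts, Rps4l stood at 1.95%, 0.214% and 0.514% of Rps4x.

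**Figure D3:**
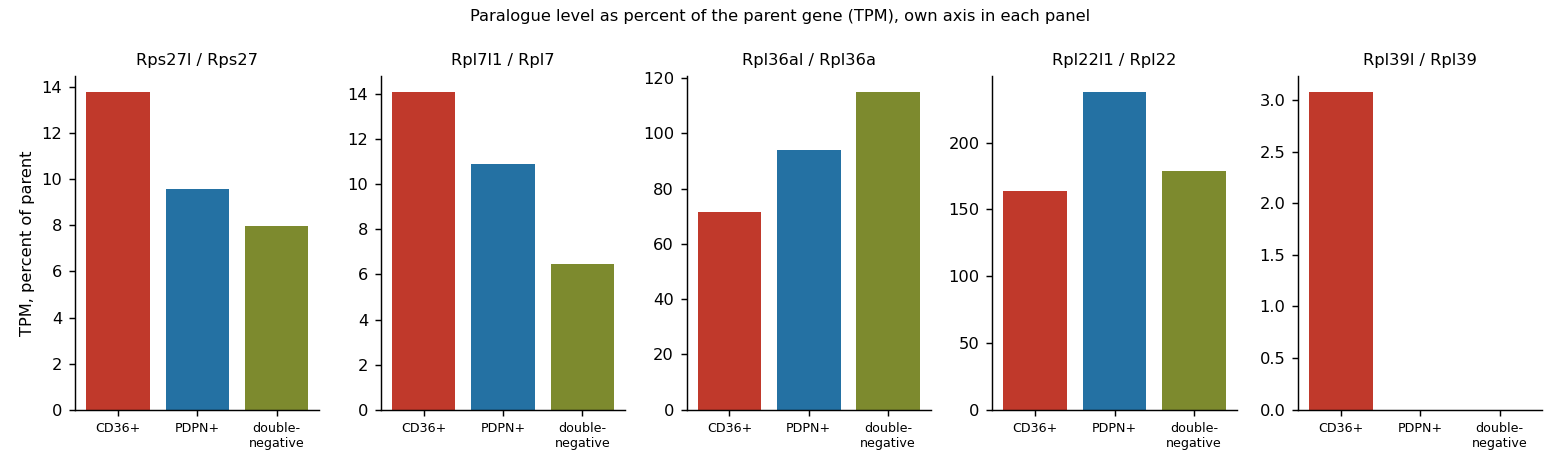
TPM of 5 paralogues as a percent of the TPM of their parent gene in each library, 1 library per bar, each panel with its own axis from 0. Rps27l and Rpl7l1 stand highest in CD36+ (13.8% and 14.1%), Rpl36al in double-negative (115%), Rpl22l1 in PDPN+ (238%), and Rpl39l has a bar in CD36+ alone (3.08%).

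Most ribosomal protein genes have copies that reads cannot always be told from. A copy was taken as a protein-coding gene or pseudogene elsewhere in the genome that shared at least 50% of its words of 31 bases with the gene. There were 292 copies of 71 genes, of which 43 reached 10 CPM in a library and 22 had 0 counts throughout. The copies held 0.616%, 0.652% and 0.619% of all counts, beside the 2.548%, 2.691% and 2.648% of the genes themselves. Reads of such genes may be divided between gene and copy by the quantification. Levels of genes with abundant copies are therefore uncertain, in this section and above. Of genes given above, copies held 66%, 69% and 65% of the counts of Rpl3 and its copies together. The same share was 34%, 31% and 34% for Rplp0 and 17%, 20% and 19% for Rpl35. It was 29%, 26% and 27% for Rps20, and 13%, 15% and 17% for Rpl10. For Rps13 it was 18%, 11% and 17%, and for Rps29 10%, 11% and 13%.

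Rpl5 is the clearest case. Its protein forms the 5S particle of the large subunit with RPL11, and the particle is known to bind MDM2. The intron-containing gene lies at chr5:107900502-107909005, and its most abundant copy, the transcribed pseudogene Gm15500, at chr7:114705217-114706235 (GRCm38). Gm15500 was identical to all 894 coding bases of Rpl5. The first 90 bases of Rpl5 are shown as an example of this identity, with the aligned part of the copy, and there are no capitals because no position differs.
Rpl5: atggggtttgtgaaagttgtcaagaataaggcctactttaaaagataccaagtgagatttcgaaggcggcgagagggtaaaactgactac
Gm15500: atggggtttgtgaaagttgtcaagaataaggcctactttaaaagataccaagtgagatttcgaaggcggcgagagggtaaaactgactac

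Rpl5 had 27.1, 81.8 and 80.5 CPM in the order CD36+, PDPN+, double-negative. Gm15500 had 868, 707 and 749 CPM. Copies held 97.0%, 89.6% and 90.3% of the counts of the family. Rpl5 alone was 3.02-fold lower in CD36+ than in PDPN+ (2.86 to 3.19) and 2.97-fold lower than in double-negative (2.81 to 3.15). With its copies added, the family had 896, 789 and 831 CPM, and its distance from the group's median went from -1.86 to -0.10 log2 units for CD36+ against PDPN+ and from -1.72 to -0.05 against double-negative. Rpl11, its partner in the particle, had 121, 130 and 177 CPM, and 192, 173 and 217 CPM with its copies.

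Rps18, of the small subunit, shows the same with copies that are annotated as protein-coding. Its copy Gm10260 (chr13:97760072-97760632) matched 455 of 459 coding bases of Rps18 (chr17:33951999-33956001), and a second copy, Gm11361, was also annotated as protein-coding. Coding bases 141 to 230 are shown with the 1 differing position of this stretch in capitals.
Rps18: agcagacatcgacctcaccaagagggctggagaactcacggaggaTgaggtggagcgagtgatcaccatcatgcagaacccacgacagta
Gm10260: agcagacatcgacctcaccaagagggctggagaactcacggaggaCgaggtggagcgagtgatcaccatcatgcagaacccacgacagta

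Rps18 had 34.1, 28.2 and 18.7 CPM, and copies held 94.1%, 93.0% and 96.6% of its family. Its distance from the group's median for CD36+ against double-negative was 0.72 log2 units alone and -0.07 with copies. Rps12, another small-subunit gene, had 54.4, 23.6 and 16.9 CPM, and its copy Rps12-ps3 was identical over all 399 coding bases. Copies held 65.0%, 73.7% and 87.4% of the Rps12 family. Rps12 alone was 3.22-fold higher in CD36+ than in double-negative (2.98 to 3.47), and the family was 1.16-fold higher. Against PDPN+ the fold was 2.31 alone (2.17 to 2.45) and 1.73 for the family. By TPM none of the 81 genes compared, Rps12 included, was 2-fold higher in CD36+ than in either other library.

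Rpl12 and Rpl21, of the large subunit, were low in the double-negative library. Rpl12 had 46.7, 47.4 and 24.9 CPM, with 78.0%, 73.3% and 82.3% of its family in copies. Rpl21 had 73.7, 68.1 and 44.4 CPM, with 77.7%, 75.4% and 83.1% in copies. For double-negative against PDPN+ their distances from the group's median were -1.08 and -0.77 log2 units alone, and -0.52 and -0.26 with copies. Rps2 had 27.4, 28.0 and 21.7 CPM, with 98.0%, 97.7% and 97.8% of its family in copies.

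With copies added to every gene, 2 of the 81 genes (Rps27l and Rpl10) were at least 2-fold higher in CD36+ than in PDPN+. None of the 81 was 2-fold apart in any other direction or pair. The number within 1.5-fold of the group's median went from 75, 73 and 73 to 78, 78 and 77. The distances of Rpl10 (0.81 alone and 0.77 with copies for CD36+ against PDPN+) and Rps20 (0.63 and 0.66) changed little. Rps27l and Rpl7l1 had no copy by this rule, so their counts could not change. Their distances moved only with the group's median, from 0.91 to 0.89 for Rps27l in CD36+ against PDPN+. For Rpl7l1 in CD36+ against double-negative the distance was 0.78 in both.

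**Figure D4:**
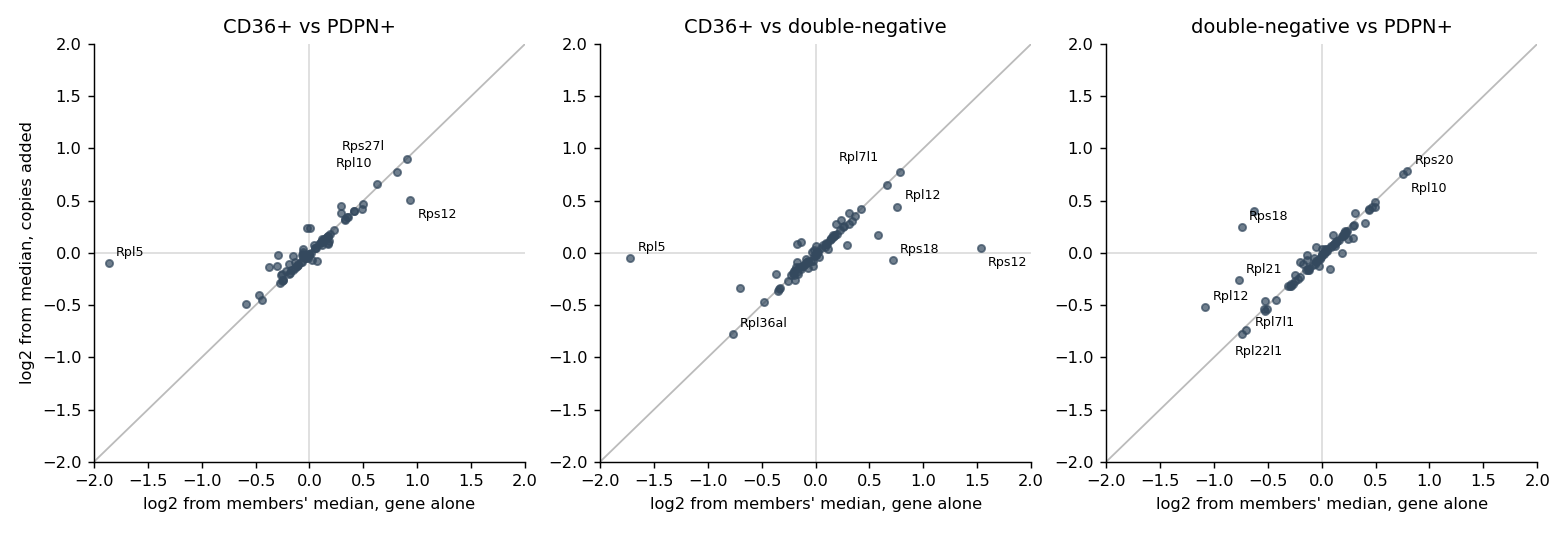
Distance of each of the 81 genes from the group's median log2 ratio, for the gene alone (horizontal axis) and with the counts of its copies added (vertical axis), in the 3 pairs. Genes on the diagonal do not change, while Rpl5 goes from -1.86 to -0.10 in CD36+ against PDPN+ and Rps12 from 1.53 to 0.05 in CD36+ against double-negative.

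**Figure D5:**
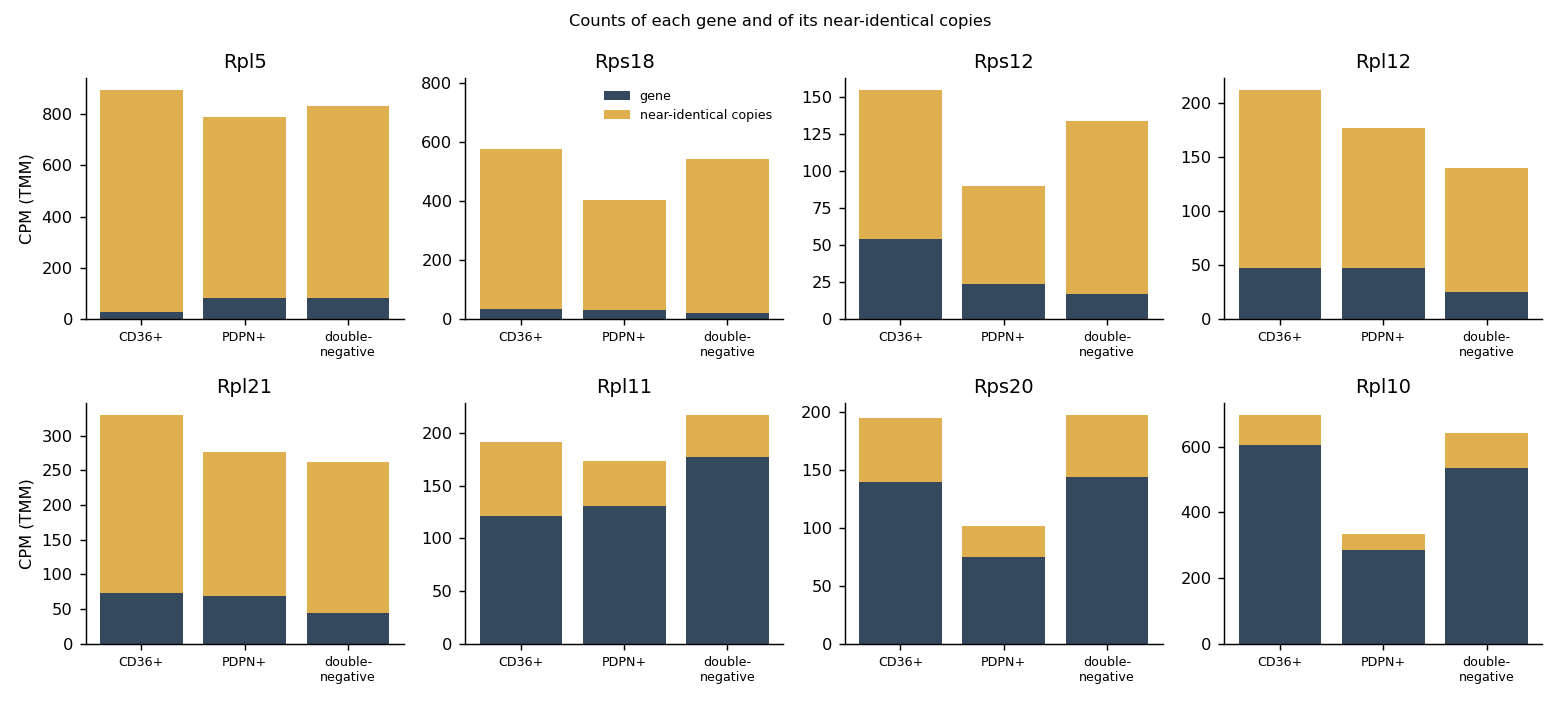
CPM of 8 genes (dark) with the CPM of their near-identical copies stacked on top (light), 1 library per bar and a separate axis from 0 in each panel. Copies make up most of the bar for Rpl5, Rps18, Rps12, Rpl12 and Rpl21, while the bars of Rps20 and Rpl10 are mostly the gene and are lowest in PDPN+.

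Fau and Rack1 encode ribosomal proteins but have symbols outside the rule. Fau, which encodes RPS30 as a fusion, had 93.8, 99.8 and 114 CPM. Rack1, of the small subunit, had 567, 463 and 525 CPM. Neither gene was 2-fold apart in any pair. The same held for all 14 other TOP genes of translation, such as Eef1a1, the elongation factor that brings tRNA, with 4077, 2784 and 3257 CPM, and Npm1 with 988, 869 and 900 CPM. The medians of these 14 were 0.18, 0.32 and 0.06 log2 units.

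Genes that build or regulate ribosomes were compared by the same rule, under which 53.4%, 43.9% and 55.6% of all genes were at least 2-fold apart in either direction in the 3 pairs. In no pair did the lists of assembly, RNA polymerase I, mTOR and mitochondrial ribosomal protein genes given here exceed that share, both directions added. Of 14 assembly factors compared for CD36+ against PDPN+, 4 were at least 2-fold higher and 2 lower. Nop58, a core protein of small nucleolar particles, was among those apart, with 1020, 490 and 925 CPM. Bop1, which acts in large-subunit processing, had 44.7, 6.59 and 6.20 CPM, and its partner Pes1 had 35.1, 80.4 and 4.18 CPM. Both were also among those apart, and no factor that was not apart is named here. For CD36+ against double-negative 3 of 14 were higher and 0 lower, and for double-negative against PDPN+ 0 of 13 were higher and 2 lower. Among RNA polymerase I genes, 0 of 7 were higher and 3 lower for CD36+ against PDPN+, among them Ubtf, the activator of ribosomal RNA genes, with 5.93, 87.9 and 11.0 CPM. For the other pairs, 1 of 8 was higher and 2 lower for CD36+ against double-negative, and 1 of 8 higher and 3 lower for double-negative against PDPN+.

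In the list of mTOR and TOP control, 2 of 10 genes were at least 2-fold higher and 2 lower for CD36+ against PDPN+, 3 and 0 for CD36+ against double-negative, and 1 and 3 for double-negative against PDPN+. Rheb, the activator of mTOR, was among those higher in CD36+ than in PDPN+, with 1231, 475 and 899 CPM. Larp1, which binds TOP mRNAs, was apart in no pair, with 62.9, 53.0 and 60.2 CPM. Mitochondrial ribosomal proteins, which serve the ribosomes inside mitochondria, were counted in the same way. Of 74 compared for CD36+ against PDPN+, 5 were at least 2-fold higher and 25 lower. Of 69 for CD36+ against double-negative, 10 were higher and 10 lower, and of 76 for double-negative against PDPN+, 9 were higher and 19 lower.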

How the data were processed

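Bulk RNA sequencing of 3 sorted populations, 1 library each, was used. The authors deposited a gene table per library with estimated counts and TPM, made with Salmon 0.9.1 against mm10 per the submitters' processing notes. Annotation, strand setting and read filters are not stated there. Estimated counts were rounded to whole numbers. The deposited length columns were not used. Identifiers were matched without version to GENCODE M21 (52566 of 52661), and 74 of the 84 genes also matched with version.

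Counts were scaled by TMM (edgeR 4.0.16, R 4.3.3) over all 3 libraries, and 2 was the prior count of log2 ratios. Other steps used Python 3.11.15, numpy 2.4.6, pandas 2.3.3, scipy 1.17.1 and matplotlib 3.10.9. Folds carry exact (Clopper-Pearson) 95% intervals, and ratios of paralogue to parent a normal interval on the log scale of 4 counts. Both cover counting error only, and reads without molecular identifiers can be PCR duplicates. The calculation was tested on simulated data.

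Named genes were the paralogue pairs, the stalk, 5S particle and Rpsa genes, the 5 of highest level, the 5 farthest from the group's median on each side of each pair, those at least 2-fold apart, and up to 4 genes of each other list. Rps2, Gm11361, Mdm2, Bop1, Pes1, Ubtf and Larp1 were named after their values were seen, and some genes of the rule are not reported here. Members and lists were chosen with earlier results of these data known. The addition of copies was chosen after seeing the data. Alternatives were other scalings (total counts, upper quartile, DESeq2 1.42.0 size factors, TMM without the members), a prior count of 0.5, a minimum of 1 CPM, TPM and identifiers with version.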

Additional observations from a re-analysis of the deposited data

How the results depend on the processing

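No group had a replicate, so no paired analysis was possible because each population had 1 library, and no library could be left out. The median log2 ratio of the group for CD36+ against PDPN+ (0.27) was -0.13 under total counts, 0.54 under the upper quartile, 0.28 with TMM computed without the members, -0.16 by TPM and 0.28 with copies added. For CD36+ against double-negative (0.15) it was -0.024 under total counts, 0.14 under the upper quartile, 0.16 under DESeq2 size factors, 0.050 by TPM and 0.16 with copies. For double-negative against PDPN+ (0.15) it was -0.078 under total counts, 0.44 under the upper quartile, 0.14 under DESeq2 size factors, 0.16 with TMM without the members, -0.20 by TPM and 0.18 with copies. Genes at least 2-fold higher in CD36+ than in PDPN+ (3) numbered 0 under total counts, 6 under the upper quartile and 0 by TPM, and genes lower (1) numbered 0 with copies. For CD36+ against double-negative, genes higher (1) numbered 2 with a minimum of 1 CPM, 0 by TPM and 0 with copies, and genes lower (1) numbered 0 with copies. For double-negative against PDPN+, genes higher (0) numbered 2 under the upper quartile, and genes lower (0) numbered 1 under total counts and 2 by TPM. The share of the group was 6.57%, 7.11% and 6.49% of TPM and 3.16%, 3.34% and 3.27% of counts with copies (CD36+, PDPN+, double-negative). With copies added, the log2 ratio of Rpl5 changed sign, to 0.18 for CD36+ against PDPN+ and 0.11 against double-negative, since the family is then counted. Of 693 alternative values of 33 named genes, 419 lay within the counting interval of the reported value, 272 outside it and 2 changed sign from a 2-fold call. Depth limits only Rpl39l, Rpl3l and Rpl10l, while the lack of replicates limits every ratio.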

Other observations

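Copies of ribosomal protein genes were compared by the same 2-fold rule. Of the copies with at least 10 CPM in either library of a pair, 5 of 40 were at least 2-fold apart between CD36+ and PDPN+, 5 of 42 between CD36+ and double-negative, and 5 of 41 between double-negative and PDPN+, beside 53.4%, 43.9% and 55.6% of all genes compared. A few copies had counts mainly in some of the libraries. Gm8430, a copy of Rps27a, had 1190 counts in CD36+, 0 in PDPN+ and 1 in double-negative. Rps26-ps1 had 27, 934 and 803 counts in the same order, and Gm12366, a copy of Rps2, had 95, 1368 and 76 counts. The parent genes did not show these shapes. Rps27a had 412, 408 and 370 CPM, and Rps26 had 334, 246 and 315 CPM. These copies were chosen after their values were seen.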
